A study of Mus musculus with 9 samples.

Results

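The constitutive proteasome subunits were the genes whose name in the scanner files is Psma, Psmb, Psmc or Psmd followed by a number, leaving out the immunoproteasome subunits Psmb8, Psmb9 and Psmb10. They were 35 genes on 51 of the 41174 probes of the array. Of these genes, 34 on 47 probes passed the filter on dim probes and were among the 14253 genes tested, 14 of 15 core genes (Psma, Psmb) and 20 of 20 regulatory genes (Psmc, Psmd). Psma8, a core subunit known from testis, was well above background on 1 TIC array only and was not tested. Psmc3ip, which is named for its binding to Psmc3 and is not a subunit, was not counted.

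The samples were 3 arrays each of day 10 TIC, day 10 Blood and day 0 Blood, 1 from each of the same 3 female Balb/c athymic mice, numbered 832, 833 and 834. Day 10 TIC was a cell fraction enriched for tumor-infiltrating inflammatory cells, obtained by grinding the subcutaneous tumours that Hepa1-6 cells, a mouse hepatoma line, had formed 10 days after inoculation. Day 10 Blood came from the same inoculated mice, and day 0 Blood was drawn before inoculation. Athymic mice have no thymus and few T cells, which holds for all 3 groups. Each sample was labelled with Cy5 and set against 1 common Cy3 reference, blood RNA of an untreated C57Bl/6 mouse. All levels below are log2 ratios to that reference, and all differences are differences of such ratios with the SE of the limma fit.

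The proteasome degrades proteins that carry ubiquitin chains. Its core is a barrel in which rings of Psma gene products (alpha subunits) close off rings of Psmb gene products (beta subunits), and Psmb5, Psmb6 and Psmb7 carry the cutting sites. The regulatory particle caps the barrel: the Psmc ATPases unfold the substrate, and most Psmd products form the base and the lid that bind ubiquitin, remove it and hold the particle together. Immune cells and cells exposed to interferon can replace the cutting subunits by Psmb8, Psmb9 and Psmb10.

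Sample RNA was dimmest in day 10 Blood. Spots well above background in Cy5 made up 48.2% to 55.1% on the day 10 TIC arrays, against 14.2% to 21.0% on those of day 10 Blood and 24.4% to 36.9% on those of day 0 Blood, and no spot was saturated. Of the 34 member genes, all 34 were well above background on each TIC array, 16 to 22 on the day 10 Blood arrays and 27 to 33 on the day 0 Blood arrays. The array number per group, 3, limits the precision of every difference, and mice were the only replicates. Each SE rests on 1 spread per gene, estimated over all 3 groups together. The TIC fraction and day 10 Blood never shared a slide, whereas slide 2 held 2 arrays each of TIC and day 0 Blood, and slide 3 held all 3 arrays of day 10 Blood with 1 of day 0 Blood. The TIC array of mouse 832 was the only one used from slide 1 and was scanned on another day than the rest. With slide as a block it adds nothing to the differences. TIC against day 10 Blood then rests on TIC of mice 833 and 834, linked through day 0 Blood.

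The labelled groups were set against cell type markers. Over all genes tested, 34.4% were called higher and 33.1% lower in day 10 TIC than in day 10 Blood. Against day 10 Blood, day 10 TIC was higher in 6 of 10 macrophage markers, 8 of 11 hepatocyte and hepatoma markers (2 were lower), 9 of 10 cell cycle genes (1 was lower) and 2 of 8 fibroblast and endothelial markers (4 were lower), and lower in 13 of 13 erythroid, 7 of 7 platelet, 8 of 8 B cell, 7 of 7 T cell and 7 of 10 neutrophil markers. The hepatocyte and hepatoma list made up 0.234% to 0.957% of the summed Cy5 intensity in day 10 TIC. It took 0.0114% to 0.0170% in day 10 Blood, against 0.00807% to 0.0103% in day 0 Blood, and in both bloods Alb, Apoa1, Apoa2, Fgg, Igfbp1, Dlk1 and Apob stayed near background on every array. The macrophage list took 0.348% to 0.556% in day 10 TIC, with 0.0189% to 0.0206% in day 10 Blood, against 0.0185% to 0.0257% in day 0 Blood. The erythroid list took 0.0183% to 0.0310% in day 10 TIC, with 2.80% to 3.74% in day 10 Blood, against 2.18% to 3.92% in day 0 Blood. The neutrophil list took 0.189% to 0.348% in day 10 TIC, with 1.38% to 1.86% in day 10 Blood, against 2.13% to 3.02% in day 0 Blood. The fibroblast and endothelial list took 0.184% to 0.232% in day 10 TIC, with 0.00593% to 0.00714% in day 10 Blood, against 0.00421% to 0.00669% in day 0 Blood. The part of these cell types in the subunit differences was not tested, and in bulk samples fewer cells of a type and less RNA per cell cannot be told apart.

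The proteasome genes were higher as a group in the tumour fraction than in blood of the same day. Of the 34 genes, 29 (85.3%) rose, where 34.4% of all genes tested rose, and 2 were lower, where 33.1% of all genes tested were lower. The median difference was 1.59 on the log2 scale over the 34 genes, against 0.07 over all genes tested. With slide as a block 16 of the 29 were called higher, where 1498 of the 14253 genes tested were, and with mouse and slide as blocks 1 was, where 214 of them (1.5%) were. The 13 calls lost with slide as a block were those of Psma3, Psma6, Psmb2, Psmb6, Psmb7, Psmc3, Psmc6, Psmd1, Psmd5, Psmd6, Psmd9, Psmd10 and Psmd13, which kept their direction. By mouse the median difference was 1.71, 1.07 and 1.98 in mice 832, 833 and 834. In total Cy5 intensity the 34 genes took 1.14%, 0.712% and 1.13% on the TIC arrays of these mice, against 0.0947%, 0.103% and 0.0789% on the day 10 Blood arrays and 0.127%, 0.217% and 0.190% on the day 0 Blood arrays. The TIC arrays lay above every blood array in this share.

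**Figure D1:**
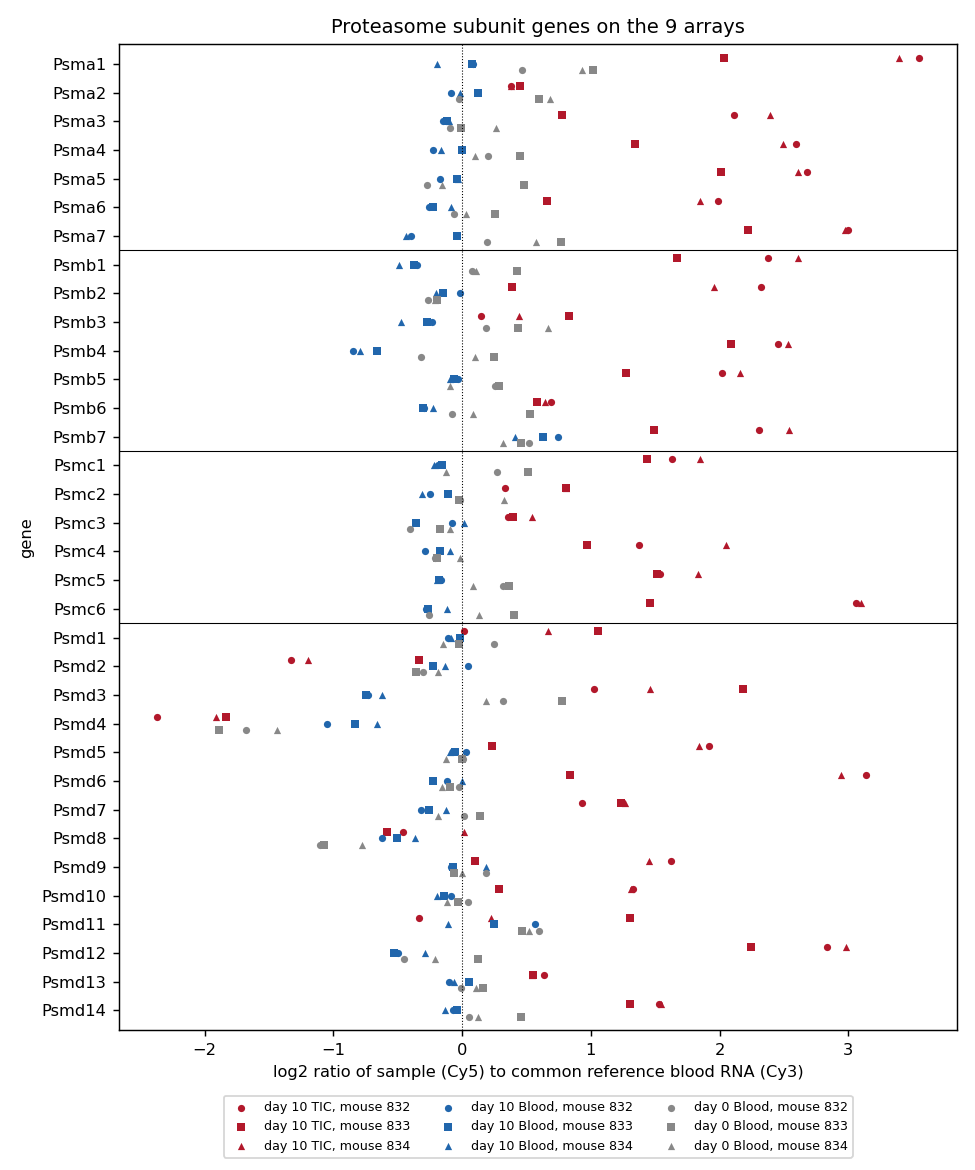
Log2 ratio of each sample to the common reference (horizontal axis) for the 34 proteasome subunit genes (vertical axis, grouped by family), with 1 point per array, coloured by group and shaped by mouse. The red day 10 TIC points lie to the right of both bloods for most genes, and to the left of day 10 Blood for Psmd2 and Psmd4.

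Among the 3 catalytic subunits, Psmb5, the chymotrypsin-like one, had log2 ratios of 2.02, 1.27 and 2.16 in day 10 TIC of mice 832, 833 and 834, against -0.03, -0.07 and -0.10 in day 10 Blood and 0.25, 0.29 and -0.09 in day 0 Blood. The 3 TIC arrays were high and overlapped neither blood. The difference was 1.88 ± 0.22 (SE) against day 10 Blood (limma, adjusted p = 0.000104), a ratio 3.68 times as high, and 1.67 ± 0.22 against day 0 Blood (adjusted p = 0.000251). Its probe lies at chr14:53568529-53568588 on mouse build mm8, as the files give it.

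Psmb7, the trypsin-like subunit, had ratios of 2.31, 1.49 and 2.54 in day 10 TIC, against 0.74, 0.63 and 0.41 in day 10 Blood and 0.52, 0.46 and 0.31 in day 0 Blood. Every TIC array again stood above all blood arrays. The difference was 1.52 ± 0.25 against day 10 Blood (adjusted p = 0.000699) and 1.68 ± 0.25 against day 0 Blood (adjusted p = 0.000434). With the deposited log ratio the difference against day 10 Blood was 0.41 and was not called (adjusted p = 0.318).

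Psmb6, the caspase-like subunit, had ratios of 0.69, 0.58 and 0.64 in day 10 TIC, against -0.29, -0.31 and -0.23 in day 10 Blood and -0.08, 0.53 and 0.08 in day 0 Blood. The groups did not overlap, although the lowest TIC array and the day 0 Blood array of mouse 833 were close. The difference was 0.91 ± 0.15 against day 10 Blood (adjusted p = 0.000793) and 0.46 ± 0.15 against day 0 Blood (adjusted p = 0.0252), the smallest of the rises among the catalytic genes. The call against day 0 Blood was lost with the deposited log ratio (0.39, adjusted p = 0.326) and with slide as a block (0.39, adjusted p = 0.155).

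Of the structural beta subunits, Psmb4 had the smallest p of the Psmb family. Its ratios were 2.45, 2.09 and 2.53 in day 10 TIC, against -0.85, -0.66 and -0.80 in day 10 Blood and -0.32, 0.25 and 0.10 in day 0 Blood. The 3 TIC arrays were tightly grouped and far above both bloods. The difference was 3.13 ± 0.18 against day 10 Blood (adjusted p = 2.25e-06), a ratio 8.73 times as high, and 2.35 ± 0.18 against day 0 Blood (adjusted p = 1.2e-05). The probe is listed at chr3:94969808-94970097 on mm8. Psmb1 rose by 2.62 against day 10 Blood and by 2.01 against day 0 Blood, and Psmb2 by 1.67 and 1.78. Psmb2 was not well above background in day 10 Blood. Psmb3 rose by 0.80 against day 10 Blood with the probe used (adjusted p = 0.00579) and differed by 0.04 from day 0 Blood (adjusted p = 0.855). The other Psmb3 probe gave 2.42 and 2.68, so its size depends on the probe.

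In the alpha ring 6 of 7 tested genes rose against day 10 Blood. Psma7 had ratios of 3.0, 2.22 and 2.97 in day 10 TIC, against -0.40, -0.04 and -0.43 in day 10 Blood and 0.19, 0.77 and 0.57 in day 0 Blood. The TIC arrays lay above both bloods, with mouse 833 the lowest of them. The difference was 3.02 ± 0.24 against day 10 Blood (adjusted p = 1.05e-05) and 2.22 ± 0.24 against day 0 Blood (adjusted p = 7.96e-05). Psma5 had ratios of 2.68, 2.01 and 2.61 in day 10 TIC, against -0.17, -0.04 and -0.03 in day 10 Blood and -0.27, 0.48 and -0.16 in day 0 Blood. It stood above both bloods on all 3 arrays, by 2.51 ± 0.23 and 2.42 ± 0.23 (adjusted p = 2.49e-05 and 4.29e-05).

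The alpha genes Psma1, Psma3, Psma4 and Psma6 rose against day 10 Blood by 3.0, 1.88, 2.27 and 1.69, and against day 0 Blood by 2.19, 1.71, 1.90 and 1.43. Psma2 was the exception in the ring. Its ratios were 0.38, 0.45 and 0.38 in day 10 TIC, against -0.09, 0.12 and -0.02 in day 10 Blood and -0.02, 0.59 and 0.69 in day 0 Blood. Its TIC arrays lay above day 10 Blood and among those of day 0 Blood, and neither difference was called (0.40, adjusted p = 0.0757, and -0.02, adjusted p = 0.944). The Cy5 channel alone after quantile normalization placed Psma2 2.26 above day 10 Blood (adjusted p = 0.000675) and 1.93 above day 0 Blood (adjusted p = 0.00243).

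All 6 Psmc ATPase genes of the regulatory base rose against each blood. Psmc5 had ratios of 1.54, 1.51 and 1.83 in day 10 TIC, against -0.17, -0.18 and -0.19 in day 10 Blood and 0.31, 0.36 and 0.08 in day 0 Blood. The 3 groups were each narrow and did not overlap. The difference was 1.81 ± 0.12 against day 10 Blood (adjusted p = 4.97e-06) and 1.37 ± 0.12 against day 0 Blood (adjusted p = 2.88e-05). Against day 10 Blood, Psmc6 rose by 2.76, Psmc1 by 1.82, Psmc4 by 1.65 and Psmc2 by 0.87. Psmc3 had ratios of 0.35, 0.39 and 0.54 in day 10 TIC, against -0.08, -0.36 and 0.01 in day 10 Blood and -0.41, -0.18 and -0.10 in day 0 Blood. It was the ATPase gene with the smallest rise against day 10 Blood, 0.57 ± 0.13 (adjusted p = 0.00536), and rose by 0.65 ± 0.13 against day 0 Blood (adjusted p = 0.0028).

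The Psmd genes were mixed: 10 of 14 rose against day 10 Blood and 2 were lower. Psmd12, a lid subunit, had ratios of 2.83, 2.25 and 2.98 in day 10 TIC, against -0.50, -0.53 and -0.29 in day 10 Blood and -0.45, 0.13 and -0.21 in day 0 Blood. The TIC arrays were far above both bloods, by 3.12 ± 0.21 and 2.86 ± 0.21 (adjusted p = 5.2e-06 and 1.21e-05). Its probe lies at chr11:107313739-107313798 on mm8. Of its other probes, 1 gave 1.02 and 1 gave 1.70 against day 10 Blood, both called higher.

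Psmd3, another lid subunit, had ratios of 1.02, 2.18 and 1.46 in day 10 TIC, against -0.73, -0.74 and -0.62 in day 10 Blood and 0.32, 0.78 and 0.18 in day 0 Blood. In this gene mouse 833 was the highest TIC array. It rose by 2.25 ± 0.28 against day 10 Blood (adjusted p = 0.000133) and by 1.13 ± 0.28 against day 0 Blood (adjusted p = 0.00687). Psmd14, the deubiquitinase of the lid, rose by 1.54 and 1.25 against day 10 and day 0 Blood, and the lid genes Psmd6, Psmd7 and Psmd13 rose by 2.42, 1.38 and 0.61 against day 10 Blood. The other probes of Psmd7 gave 0.46 and 0.38. The lid genes Psmd8 (0.15, adjusted p = 0.449) and Psmd11 (0.16, adjusted p = 0.709) were not called against day 10 Blood, and Psmd8 was called higher against day 0 Blood (0.64, adjusted p = 0.0108).

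The genes of the base scaffold differed from each other. Psmd1 rose by 0.65 against day 10 Blood (adjusted p = 0.0376), a call that was lost with mouse as a block (adjusted p = 0.054) and without the TIC array of mouse 833 (0.41, adjusted p = 0.0729). Psmd2 had ratios of -1.33, -0.34 and -1.20 in day 10 TIC, against 0.04, -0.22 and -0.13 in day 10 Blood and -0.30, -0.36 and -0.19 in day 0 Blood. Mice 832 and 834 were low, and the TIC array of mouse 833 lay at the level of blood. The difference was -0.85 ± 0.24 against day 10 Blood (adjusted p = 0.0121), but 2.54 with each array centred on its median in place of loess. With day 0 Blood as the baseline it was -0.67 ± 0.24 (adjusted p = 0.0339), not called with mouse as a block (adjusted p = 0.0548), and 2.0 with arrays centred on their medians.

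Psmd4, the ubiquitin receptor, had ratios of -2.37, -1.83 and -1.91 in day 10 TIC, against -1.05, -0.83 and -0.66 in day 10 Blood and -1.68, -1.89 and -1.44 in day 0 Blood. The TIC arrays were below day 10 Blood and overlapped day 0 Blood. The difference against day 10 Blood was -1.19 ± 0.18 (adjusted p = 0.000511), and -0.73 with its other probe, but 3.72 with arrays centred on their medians. With slide as a block it was -0.68 and was not called (adjusted p = 0.0891), nor was Psmd2 (-0.52, adjusted p = 0.378). The difference from day 0 Blood was -0.37 ± 0.18 (adjusted p = 0.107). The other probe gave -0.45 there and was called lower (limma over all probes, adjusted p = 0.00609). The probe used is listed at chr3:95119413-95120011 on mm8. Median centring moved the median of all genes tested to 1.38 against day 10 Blood and 1.16 against day 0 Blood, so that the lower values of Psmd2 and Psmd4 depend on the scaling, and their calls on the slide block as well.

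Psmd5, Psmd9 and Psmd10 encode chaperones that assemble the base and are absent from the finished particle. They rose by 1.37, 1.05 and 1.11 against day 10 Blood and by 1.37, 1.02 and 1.01 against day 0 Blood. With slide as a block none of these calls held: against day 10 Blood the values were 0.95, 0.70 and 0.81 (adjusted p = 0.339, 0.417 and 0.235), and against day 0 Blood 1.04, 0.72 and 0.79 (adjusted p = 0.106, 0.183 and 0.0751). The TIC arrays of Psmd9 overlapped both bloods, and its calls were also lost when fitted on the compared groups alone (adjusted p = 0.0604 and 0.0691). Of 5 listed chaperones of the core, Psmg1, Psmg2 and Psmg3 were measured and called higher against day 10 Blood, with fitted differences of 1.09, 2.13 and 0.85. All 3 were at or near background on the 3 day 10 Blood arrays, and Psmg1 on those of day 0 Blood too. By single-channel group means Psmg2 was 4.26-fold higher in day 10 TIC, and for Psmg1 and Psmg3 this value exceeded the fitted fold and was not used. With slide as a block Psmg1 was 0.93 against day 10 Blood and was not called (adjusted p = 0.176).

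**Figure D2:**
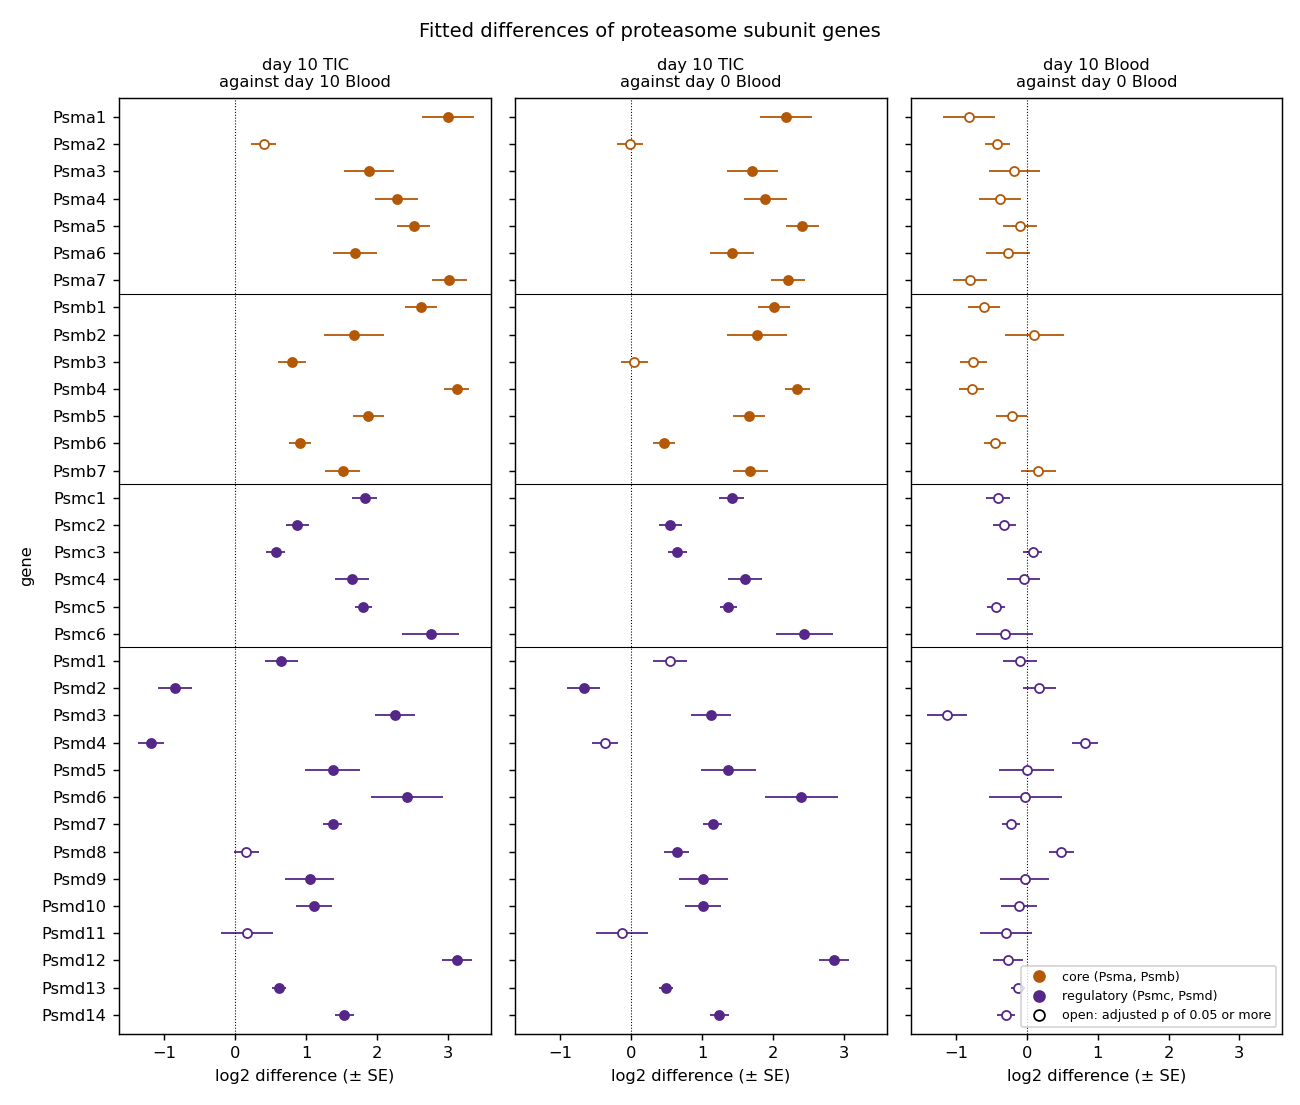
Fitted log2 differences (horizontal axis, bars show the SE of the limma fit) of the 34 genes (vertical axis) in the 3 comparisons, with core genes in orange, regulatory genes in purple and open points for genes with an adjusted p of 0.05 or more. Most points of both TIC comparisons lie right of 0, while all 34 points between the bloods are open.

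A share of these rises starts from signals near background. Of the 29 rises, 12 were of genes at or near background in Cy5 on all 3 day 10 Blood arrays (Psma4, Psma6, Psmb2, Psmc3, Psmc4, Psmd1, Psmd5, Psmd6, Psmd7, Psmd9, Psmd10 and Psmd13). Psmb2, Psmd1, Psmd5 and Psmd7 were well above background on only 2 day 0 Blood arrays, and Psmd9, Psmd10 and Psmd13 on 1. These genes passed the filter only through TIC, where they were high, so their rises are not independent of the filter. The rest were well above background on all 3 day 0 Blood arrays. Single-channel values, which are open to dye bias, were also compared by group mean. By these, day 10 TIC was 3.14-fold higher for Psmb2, 5.34-fold for Psmd6 and 2.53-fold for Psmd7. For the other 9 genes this value exceeded the fitted fold and was not used. The values are no limits for each mouse. In mouse 833 the log2 ratios of Psmb2, Psmd6 and Psmd7 rose by 0.53, 1.07 and 1.49. Of the 22 genes measured in day 10 Blood, 17 rose, but the share among all genes measured there was not worked out, so this count has no comparison. On the probes well above background on all 9 arrays, 16 members remained and 11 of them rose, where 17.8% of the 3897 genes tested did.

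Against day 0 Blood, the direction was again up for most subunits. The call was higher for 28 of 34 genes (82.4%), where 31.7% of all genes tested were called higher, and lower for 1, Psmd2, where 33.6% of all genes were. The median difference was 1.37, against 0.01 over all genes tested. Psma2, Psmb3, Psmd1, Psmd4 and Psmd11 were not called. Among the 28, Psmb2, Psmd5 and Psmd7 were well above background on only 2 day 0 Blood arrays, and Psmd9, Psmd10 and Psmd13 on 1. None of these was so on a day 10 Blood array. They passed the filter only through TIC, where they were high, so their calls are not independent of the filter. Both TIC comparisons share the TIC arrays, so their counts are not separate evidence. Within slide 2, with 2 arrays a group, 10 of the 34 genes were called higher, where 7.19% of all genes tested were, and the median difference was 1.56 over core and 0.93 over regulatory genes.

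Core genes stood further above blood than regulatory genes. Their median difference was 1.88 over 14 core and 1.24 over 20 regulatory genes against day 10 Blood, and 1.74 over core and 1.07 over regulatory genes against day 0 Blood. The array medians of the core genes were 2.31, 1.31 and 2.44 in day 10 TIC of mice 832, 833 and 834, against -0.20, -0.09 and -0.18 in day 10 Blood and 0.03, 0.44 and 0.10 in day 0 Blood. Those of the regulatory genes were 1.17, 0.90 and 1.38 in day 10 TIC, against -0.14, -0.18 and -0.13 in day 10 Blood and -0.00, -0.01 and -0.11 in day 0 Blood. The core median was the higher one on all 3 TIC arrays, by 1.14, 0.41 and 1.06, and on the day 0 Blood arrays by 0.03, 0.45 and 0.21. In day 10 Blood the difference was -0.05, 0.09 and -0.05. Set against blood of the same mouse, core and regulatory genes were close in mouse 833. Its median differences were 1.22 over core and 1.06 over regulatory genes against day 10 Blood. Against day 0 Blood they were 0.94 and 0.84. In mice 832 and 834 the core median was further above the regulatory one in both comparisons. Against day 0 Blood the medians there were 2.25 and 1.07 in mouse 832, and 2.24 and 1.43 in mouse 834. The gap between core and regulatory medians over all 3 mice was not tested. With the deposited log ratio this gap was 0.04 instead of 0.64 against day 10 Blood, so its size depends on the processing.

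**Figure D3:**
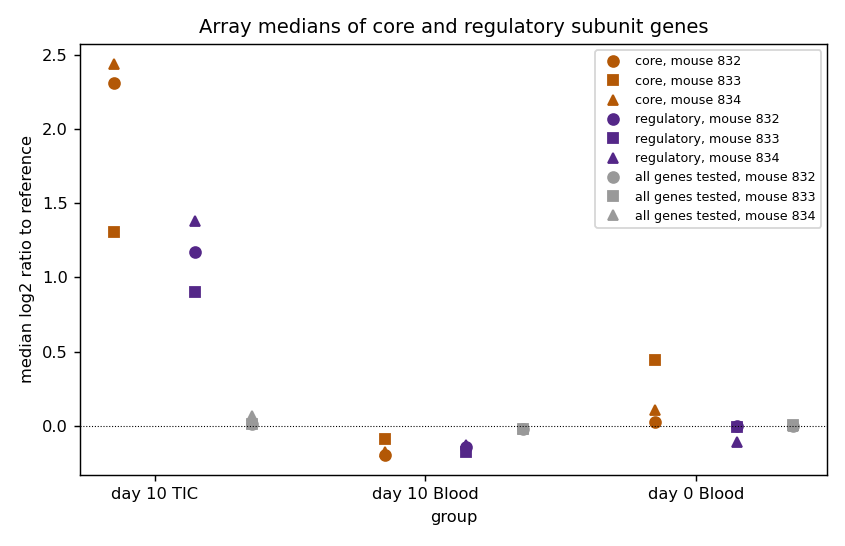
Median log2 ratio to the reference (vertical axis) of the 14 core genes, the 20 regulatory genes and all genes tested on each of the 9 arrays, by group (horizontal axis) and mouse (symbol). In day 10 TIC the core medians of mice 832 and 834 are 2.31 and 2.44 and that of mouse 833 is 1.31, while the medians of all genes stay near 0.

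The TIC array of mouse 833 stood apart from the other TIC arrays. Of the core genes 12 of 14, and of the regulatory genes 13 of 20, were lower there than the mean of mice 832 and 834, which is 73.5% of the members, where 52.1% of all genes tested were lower. The median shift was -0.82 over core and -0.20 over regulatory genes, against -0.02 over all genes tested. The largest shifts were those of Psmd6 (0.84 in mouse 833 against a mean of 3.04 in the others), Psmb2 (0.38 against 2.14), Psmd5 (0.23 against 1.88) and Psmc6 (1.46 against 3.08). In the other direction Psmd11 stood at 1.30 against -0.06, Psmd3 at 2.18 against 1.24 and Psmd2 at -0.34 against -1.26. The core genes took 0.448% of the Cy5 signal in mouse 833 and 0.898% and 0.877% in mice 832 and 834, and the regulatory genes 0.264% in mouse 833 and 0.237% and 0.253% in the others. On the same array the hepatocyte and hepatoma list took 0.957% of the Cy5 signal, against 0.234% in mouse 832 and 0.287% in mouse 834. By median log2 ratio the same list was lowest in mouse 833, at 0.51, against 0.95 in mouse 832 and 1.45 in mouse 834. The 2 measures of this list thus went opposite ways. Other lists differed on this array too. By share of Cy5 signal the macrophage list was lowest there (0.348%, against 0.556% in mouse 832 and 0.499% in mouse 834), as was the fibroblast and endothelial list. The cell cycle list was highest there (0.148%, against 0.0812% and 0.109%), as were the erythroid, platelet, B cell and T cell lists. The neutrophil list lay between the other mice. The part of these lists in the shift was not tested. Without the TIC array of mouse 833, 28 members were called higher and 2 lower against day 10 Blood, with a median of 1.88. Of all genes tested, 39.8% were then called higher and 37.0% lower, with a median of 0.06. For day 0 Blood 28 were then called higher and 3 lower, where 37.8% and 37.9% of all genes were, the lower ones being Psmd2, Psmd4 (-0.47, adjusted p = 0.0433) and Psmd11 (-0.58, adjusted p = 0.0316).

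**Figure D4:**
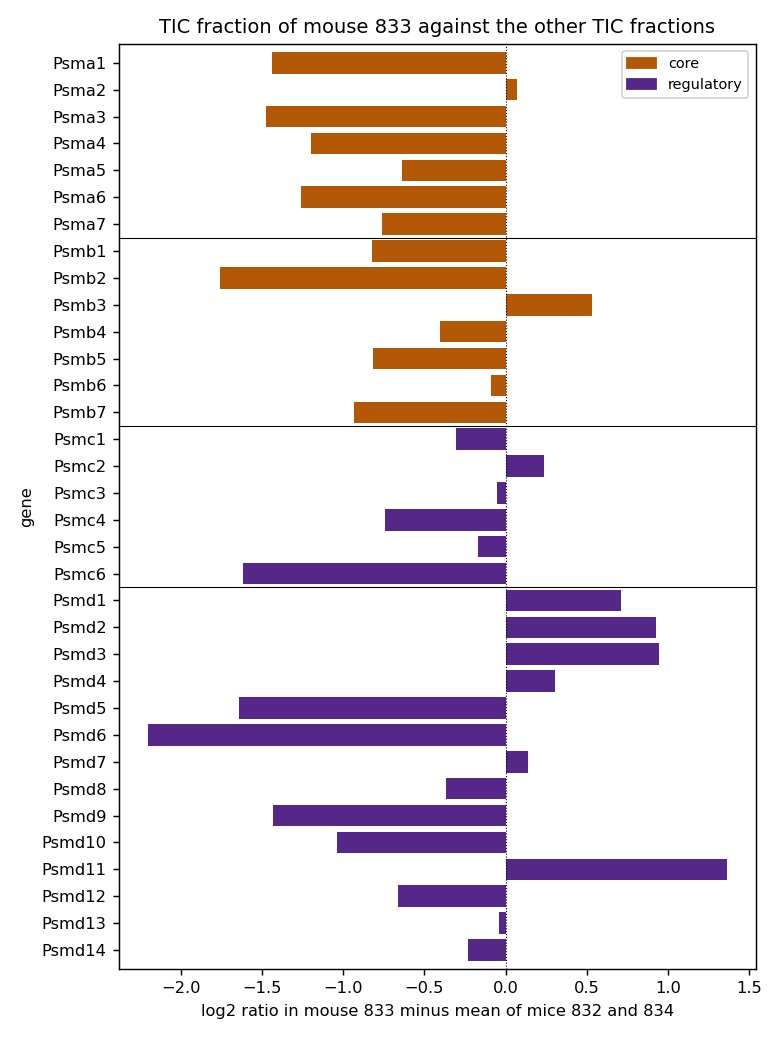
Log2 ratio in the TIC fraction of mouse 833 minus the mean of mice 832 and 834 (horizontal axis) for each of the 34 genes (vertical axis), core genes in orange and regulatory genes in purple. Bars run from -2.20 for Psmd6 to 1.36 for Psmd11, and 12 of the 14 core genes lie below 0.

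Between the bloods no member changed at the threshold, and neither did any of the 14253 genes (limma, smallest adjusted p = 0.0514 over all genes and 0.11 over members). At an unadjusted p under 0.05, 2 members were higher in day 10 Blood and 9 were lower, where 8.70% of all genes were higher and 6.06% lower. The lower ones were Psma2, Psma7, Psmb1, Psmb3, Psmb4, Psmb6, Psmc1, Psmc5 and Psmd3, and the higher ones Psmd4 and Psmd8. The other probe of Psmb3 was opposite in sign, 0.26 (limma, unadjusted p = 0.463). Those of Psmc5 and Psmd4 were -0.15 and 0.28 (unadjusted p = 0.448 and 0.0291). The groups did not overlap for 14 genes that were lower, where 17.2% of all genes were, and for 2 that were higher, where 15.7% were. The 14 hold 9 of the 14 core genes and 5 of the 20 regulatory genes, and the median difference was -0.40 over core and -0.12 over regulatory genes, against -0.01 over all genes tested.

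The values of single genes between the bloods follow from those above. Psmd3 was -1.12 ± 0.28 (adjusted p = 0.133), Psma7 -0.80 ± 0.24 (adjusted p = 0.192), Psmb4 -0.78 ± 0.18 (adjusted p = 0.11) and Psmc5 -0.43 ± 0.12 (adjusted p = 0.176). Psmd4 was 0.82 ± 0.18 (adjusted p = 0.11), the largest positive difference of a member in this fit, but -0.31 with arrays centred on their medians (adjusted p = 0.974), while Psmb7 was 0.16 and Psmc3 0.09. The SE rests on 1 spread for all 3 groups. Fitted on the 6 blood arrays alone, 7 members were called lower and 1 higher, where 2.60% and 2.64% of all genes were. Within slide 3, with 3 arrays of day 10 Blood and 1 of day 0 Blood, 6 were called lower and 0 higher, where 2.57% and 1.47% of all genes were. Without the TIC array of mouse 833 in the fit, 7 were called lower and 1 higher, where 3.68% and 3.75% of all genes were. The count of lower members between the bloods therefore ranged from 0 to 7 over these choices of arrays.

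The other proteasome genes were less uniform. Psmb8, Psmb9 and Psmb10, which replace the catalytic subunits, differed by 0.75 (adjusted p = 0.0938), 0.44 (adjusted p = 0.184) and 0.54 (adjusted p = 0.0249) between day 10 TIC and day 10 Blood. Without the TIC array of mouse 833, Psmb8 and Psmb9 were called higher too (1.25, adjusted p = 3.25e-05, and 0.76, adjusted p = 0.00432). On all arrays the other probe of Psmb8 gave 0.74 against day 10 Blood and was called higher (limma over all probes, adjusted p = 0.0213). Against day 0 Blood Psmb10 was lower, by -0.52 (adjusted p = 0.0292), but 3.1 with arrays centred on their medians and 0.0077 in the Cy5 channel alone. With slide as a block it was -0.29 and was not called (adjusted p = 0.22).

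Of 5 activators and inhibitors, 1 rose against day 10 Blood and 3 were lower, where 34.4% of all genes tested rose and 33.1% were lower. Psme2, an interferon-inducible activator subunit, rose by 0.76. Psme3, a nuclear activator, was -4.46, the activator Psme4 -1.44 and the inhibitor Psmf1 -4.09. Median centring gave 0.90 for Psme3, 3.06 for Psme4 and -0.30 for Psmf1 (adjusted p = 0.584). With slide as a block Psme2 was 0.15 (adjusted p = 0.838) and Psme4 -0.83 (adjusted p = 0.446), and neither was called. In the comparison with day 0 Blood 0 rose and 3 were lower, where 31.7% of all genes tested rose and 33.6% were lower. The 3 were Psme3 (-3.48), Psmf1 (-3.32) and Psme1 (-0.52). Median centring gave 0.59 for Psme3, 3.50 for Psme1 and -0.56 for Psmf1 (adjusted p = 0.318). Of the 9 receptors and deubiquitinases of the proteasome reported here, 6 rose against each blood, where 34.4% and 31.7% of all genes tested rose. Among them the substrate receptor Adrm1 rose by 1.45, the thioredoxin-like Txnl1 by 3.13 and the shuttle factor Rad23b by 2.65 against day 10 Blood, and the deubiquitinases Uchl5 and Usp14 by 2.48 and 0.99 against day 0 Blood.

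Of the 7 genes of ubiquitin and its activation reported here, 1 rose and 5 were lower against each blood. Over all genes tested, 34.4% rose and 33.1% were lower against day 10 Blood, and 31.7% and 33.6% against day 0 Blood. The ubiquitin gene Ubb was -5.50 against day 10 Blood, and 2.28 with median centring. The 1 that rose, Rps27a, which encodes ubiquitin fused to a ribosomal protein, was 2.60 against day 10 Blood and 1.74 against day 0 Blood. With slide as a block its call against day 10 Blood was lost (2.35, adjusted p = 0.0626). The conjugating enzymes Ube2o, which red cell precursors use, and Ube2k were -10.23 and -1.91, and Ube2k was 2.56 with median centring. Of 8 regulators of proteasome genes, 2 rose and 2 were lower against day 10 Blood, in each direction a smaller share than over all genes tested. Nfe2l1, the factor that induces proteasome genes when the proteasome is inhibited, rose by 1.08 (adjusted p = 0.00696). With slide as a block Nfe2l1 was 1.09 and was not called (adjusted p = 0.119). Maff, a partner of Nfe2l1, rose by 2.37 and was at or near background on the 3 day 10 Blood arrays. By single-channel group means Maff was 5.08-fold higher in day 10 TIC, which is no limit for each mouse. In mouse 833 its log2 ratio rose by 1.54. Ngly1, which deglycosylates Nfe2l1, was -0.73 and Mafk -0.60, and with median centring they were 1.05 and 1.34. With slide as a block they were -0.41 and -0.36, and neither was called (adjusted p = 0.161 and 0.297). Against day 0 Blood 1 regulator rose, Maff (2.02), and 3 were lower, Ngly1 (-0.63), the protease Ddi2 (-1.0) and Mafk (-0.36), which were 0.86, 1.66 and 1.21 with median centring. The calls of Ddi2 (-0.75, adjusted p = 0.118) and Mafk (-0.29, adjusted p = 0.176) were lost with slide as a block.

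Promoter letters were read for the members because most of them moved together. RefSeq sequences on GRCm38.p6 were found for 28 of the 35 genes, from 250 bases before to 50 after the start, and 3 motifs were searched on both strands. The antioxidant response element TGACNNNGC, the kind of site that Nfe2l1 binds, was in 5 of 28 genes (17.9%), where 12.4% of all 32851 promoters hold it: Psmb5, Psmb6, Psmc6, Psmd9 and Psmd12. The CCAAT box was in 11 of 28 (39.3%), where 37.4% of all hold it. The ETS core CTTCCG was in 17 of 28 (60.7%), where 16.9% of all hold it, and within the members in 4 of 11 core and 13 of 17 regulatory genes. Base composition was not matched, CTTCCG was added after the sequences had been looked at, and a match describes letters only.

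The 250 bases before the start are shown for Psmb4 and Psmd12, the core and the regulatory gene with the largest rise against day 10 Blood, for the catalytic Psmb5 with its antioxidant response element, and for Psmd4, which was lower there. Capitals mark the motifs that lie whole in these bases. In Psmd12 the element was on the minus strand, and in Psmd4 the CCAAT box and the ETS core were. In Psmb4 the ETS core runs across the start, from position -4 to 2 with no position 0, and is not marked. In order they are chr3:94886959-94887208 (minus strand), chr11:107479278-107479527 (plus), chr14:54617996-54618245 (minus) and chr3:95042615-95042864 (minus).
Psmb4: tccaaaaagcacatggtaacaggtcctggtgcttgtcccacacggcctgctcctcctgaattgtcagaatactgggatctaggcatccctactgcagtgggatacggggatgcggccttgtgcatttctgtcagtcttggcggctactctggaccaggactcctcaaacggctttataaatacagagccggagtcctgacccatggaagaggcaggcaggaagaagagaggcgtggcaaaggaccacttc
Psmd12: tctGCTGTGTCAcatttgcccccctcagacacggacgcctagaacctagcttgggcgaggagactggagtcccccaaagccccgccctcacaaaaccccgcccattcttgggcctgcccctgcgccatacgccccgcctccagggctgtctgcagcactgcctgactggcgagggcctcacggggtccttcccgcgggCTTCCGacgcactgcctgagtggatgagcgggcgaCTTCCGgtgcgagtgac
Psmb5: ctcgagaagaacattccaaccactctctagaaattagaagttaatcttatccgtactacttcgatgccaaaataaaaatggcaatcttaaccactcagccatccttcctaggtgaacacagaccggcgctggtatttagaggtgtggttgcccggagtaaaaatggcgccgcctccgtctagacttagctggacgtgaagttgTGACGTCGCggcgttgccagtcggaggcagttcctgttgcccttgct
Psmd4: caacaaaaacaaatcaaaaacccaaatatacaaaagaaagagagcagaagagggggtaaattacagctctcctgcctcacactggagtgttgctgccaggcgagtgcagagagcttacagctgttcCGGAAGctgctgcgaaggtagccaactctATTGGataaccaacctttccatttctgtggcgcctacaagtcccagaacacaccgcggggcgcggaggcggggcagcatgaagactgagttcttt
The element in Psmb5 reads TGACGTCGC from position -47 to -39 before the start, and that in Psmd12 reads TGACACAGC on the minus strand from -247 to -239.

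**Figure D5:**
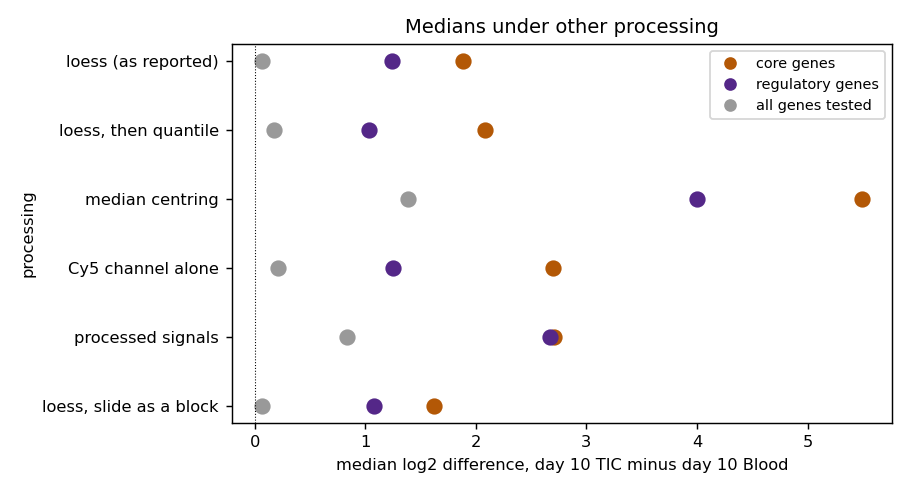
Median log2 difference of day 10 TIC minus day 10 Blood (horizontal axis) over the 14 core genes, the 20 regulatory genes and all genes tested, under 6 kinds of processing (vertical axis). Both gene sets lie right of the median of all genes in each row, and the core median is clearly above the regulatory one except with processed signals, where they are 2.71 and 2.67.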

How the data were processed

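RNA of 9 samples was measured on 9 two-colour Agilent arrays. The authors deposited, per spot, intensity and local background, processed intensity and a log10 ratio (Cy5 over Cy3), made with Agilent Feature Extraction 10.5.1.1 per the file headers and 9.1.3.1 per the submitters' processing notes. The dyes were not swapped. Mean intensities were corrected by normexp (offset 50, without spots of non-uniform background), normalized by loess within arrays and averaged per probe. A probe was kept if at least 3 of 9 arrays measured it well above background in Cy5, and the brightest probe stood for each of 14253 genes. Limma 3.58.1 in R 4.3.3 compared the groups over all 9 arrays, with Benjamini-Hochberg adjusted p-values over all genes and a threshold of 0.05. The fit was tested on simulated data with few changed genes and the same spread in all 3 groups. That test does not cover the wider spread of many members in TIC. A small rise above background is understated because of the offset.

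The members and lists were chosen with earlier results of these data known. Every member is named, and values on each array are given for Psmb5, Psmb6, Psmb7 and, per family, comparison and direction, the member with the smallest p. Of the other lists the 4 genes with the smallest p in a comparison are named where called, with Psmb8, Psmb9 and Psmb10. Some genes of these lists are not reported here and are left out of their counts. The titles number the mice, so samples pair by animal. Deviations from the group means correlated over genes by 0.19, 0.35 and 0.24 between the bloods of mice 832, 833 and 834, and by -0.06 to 0.07 between TIC and the bloods. Leaving out mouse 833 and adding Psmc3ip were chosen after seeing the data. Promoter sequences are RefSeq's.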

Additional observations from a re-analysis of the deposited data

How the results depend on the processing

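No subunit gene called higher against either blood turned sign under another scaling, whereas the lower calls of Psmd2 and Psmd4 did with median centring. Of the 29 called higher against day 10 Blood, the count was 16 with slide as a block (1498 of all 14253 genes), 1 with mouse as a replicate block together with slide (1.5%), and 11 on probes well above background on all 9 arrays (16 members tested, 17.8%). For day 0 Blood the 28 became 14 with both blocks (10.3% of all genes), 10 within slide 2 (7.19%) and 10 in the same strict filter (15.9%), which has fewer genes and for the slides fewer samples. With mouse as a replicate block the counts were 28 higher and 2 lower against day 10 Blood, and 28 higher and 0 lower against day 0 Blood, and no other call of a member changed than those of Psmd1 and Psmd2. Members called lower against day 10 Blood were 0 with slide as a block, with both blocks and with median centring, 1 in the Cy5 channel alone and 4 with every probe on its own (47 probes tested). For day 0 Blood the 1 lower call became 0 with mouse or slide blocks, within slide, on only those groups, with median centring, quantile, Cy5 alone, processed signals, the deposited ratio and no dim filter, and became 3 with every probe on its own and 2 with probe means or without mouse 833. Leaving out 1 array gave 27 to 30 higher and 2 lower against day 10 Blood, 24 to 28 higher and 0 to 3 lower against day 0 Blood, and 0 to 1 higher and 0 to 7 lower between the bloods. Between the bloods lower members numbered 6 within slide 3, 7 on the blood arrays alone (with 1 higher), 1 after quantile and without mouse 833, 4 in Cy5 alone, and 5 with processed signals or the deposited ratio.

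The median difference against day 10 Blood was 1.09 with both blocks, 4.79 with median centring and 2.67 with processed signals and the deposited ratio, and against day 0 Blood 4.16 with median centring. Between the bloods it was 0.057 with both blocks, -0.65 with median centring, -0.47 in Cy5 alone and -0.83 with processed signals and the deposited ratio. Core minus regulatory against day 10 Blood was 1.49 with median centring, 1.45 in Cy5 alone, 0.037 with processed signals and the deposited ratio and 1.72 in the strict filter. Between the bloods it was -0.17 with both blocks, -0.45 with median centring, -0.48 in Cy5 alone and 0.045 with processed signals and the deposited ratio. Leaving out 1 array kept core minus regulatory at 0.61 to 0.82, 0.57 to 1.03 and -0.37 to -0.17 in the 3 comparisons, and the median at 1.41 to 1.88, 1.23 to 1.51 and -0.28 to -0.15. The cause was not tested.

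Single genes called in the reported fit or under the alternative turned sign as follows. With both blocks Psme2 was -0.13 and Psmd9 -0.024 against day 10 Blood. With median centring, against day 10 Blood, Ubb was 2.28, Psme3 0.90, Psme1 4.98, Psmd4 3.72, Ube2k 2.56, Psme4 3.06, Psmd2 2.54, Ddi2 2.56, Mafk 1.34 and Ngly1 1.05. In the comparison with day 0 Blood, Ubb was 1.99, Psme3 0.59, Psme2 3.87, Psma2 4.11, Psme1 3.50, Psmd4 3.41, Ube2k 1.49, Psmb10 3.1, Psme4 2.79, Psmb9 3.19, Psmd11 3.04, Psmd2 2.0, Ddi2 1.66, Mafk 1.21 and Ngly1 0.86. After quantile Psme1 was 0.77 against day 10 Blood, and against day 0 Blood Psme2 was 0.79, Psma2 1.17, Psme1 0.17 and Mafk 0.018. In Cy5 alone against day 0 Blood Psma2 was 1.93 and Psmb10 0.0077, and Mafk was 0.088 with processed signals and the deposited ratio. Members called in neither also turned sign under 1 or more alternatives: Psmd8 and Psmd11 against day 10 Blood, Psma2, Psmb3, Psmd4 and Psmd11 against day 0 Blood, and 21 members between the bloods. Among these, without the TIC array of mouse 833, Psmd11 was -0.29 against day 10 Blood and Psmb3 -0.14 against day 0 Blood, and with median centring Psmd4 was -0.31 and Psmd8 -0.29 between the bloods. Signal near background limits the day 10 Blood values most.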
